A study of Homo sapiens with 56 samples.

Results

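INPP5D, which encodes the inositol phosphatase SHIP1, and 8 other enzymes and subunits of the phosphoinositide 3-kinase (PI3K), AKT and mTOR pathway were followed across 4 cell lines. The members were INPP5D, INPP4B, PIK3R1, PIK3CA, PIK3CD, PIK3CG, AKT1, RICTOR and MTOR, taken by gene symbol. They were chosen with earlier results of these data known. Probe sets whose only symbol in the platform annotation was a member were used, which gave 22 probe sets of 8 genes among 54675 probe sets. PIK3CA was not analysed here. The lines, HuT102, MJ, MyLa and HuT78, were derived from cutaneous T-cell lymphoma, a cancer of skin-homing T cells, and the virus HTLV-1 is carried by MJ and HuT102. The study asked how these cells respond to cobomarsen, an oligonucleotide that inhibits miR-155. Total RNA was hybridized to 56 Affymetrix arrays in 14 groups of 4. HuT102, MJ and MyLa were sampled with cobomarsen and untreated at day 8 and at day 4, and HuT78 with cobomarsen and untreated at day 8. The numbers in the sample titles of HuT102 and MJ run apart from those of MyLa and HuT78. What these numbers stand for is not given. A difference of HuT102 or MJ from MyLa or HuT78 cannot be told apart from whatever they mark. The untreated wells had no control oligonucleotide among the arrays used, so what any oligonucleotide would do and what blocking miR-155 does cannot be told apart. The concentration was not given in the labels used. All wells were diluted after 96 hours by the factor that suited the untreated cells, so the density of treated and untreated cells may have differed. Nothing in the labels says that the 4 samples of a group were separate cultures, so the p-values speak only of the spread among these samples, which may be technical.

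Class I PI3K phosphorylates a membrane lipid to PIP3, which brings the kinase AKT to the membrane, and AKT acts in turn on mTOR complexes that control growth and survival. SHIP1 takes a phosphate from PIP3 in blood cells, and the INPP4B enzyme takes a further phosphate from its product, so both work on the lipids that PI3K makes. INPP5D is a well-studied target of miR-155 in immune cells.

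The mature sequence of the microRNA that cobomarsen blocks is shown because its seed, bases 2 to 8 and in capitals here, is what pairs with a target transcript. It is credited to RefSeq, build GRCh38.p14, plus strand of chr21:25573983-25574006.
miR-155-5p: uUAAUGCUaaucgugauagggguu
The letters complementary to this seed in a transcript are AGCAUUA. Whether the member transcripts hold them was not analysed here.

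The values were MAS5 signals on a linear scale, which the authors had scaled so that the trimmed mean of each array was 500.1. Array upper quartiles ran from 380.2 to 466. In HuT78 they were 431, 380.2, 385 and 382 with cobomarsen, against 443, 442, 441 and 422 untreated, so cobomarsen arrays 2, 3 and 4 stood apart from array 1, and HuT78 results are given with array 1 alone as well, a choice made after the quartiles were seen. The probe set annotated to the miR-155 host transcript averaged 36.2 in cobomarsen and 29.9 in untreated HuT78 arrays, near background. In the other 6 pairs of groups its means lay between 11499 and 29906. With cobomarsen it was higher in HuT102 and lower in MJ and MyLa. At day 8 it averaged 29906 against 24428 untreated in HuT102, 15311 against 19956 in MJ and 21002 against 24943 in MyLa. Of these 6 pairs, only MyLa at day 4 had overlapping groups. Of the T cell markers, CD3D, CD3E, CD3G and CCR4 were at or above a signal of 73.9, the median of all values, in all 14 groups. The others reached it in fewer, CD2 in 12 (not in HuT78, at 44.4 with cobomarsen and 44.5 untreated), CD4 in 11, CD5 in 10, TRAT1 in 6 and CD28 in 1. Of the monocyte markers CD14, LYZ and CD163 were below it in all 14, while CSF1R reached it in 12 with a highest group mean of 221. Of the keratinocyte markers KRT5 and KRT14 were below it in all 14, while KRT1 reached it in 3 (up to 746) and DSG3 in 2 (up to 95.5). The B cell markers CD79A, PAX5 and MS4A1 reached it in 14, 8 and 4 groups, and the fibroblast markers DCN, COL3A1, PDGFRA and COL1A2 in 9, 8, 7 and 5. Their highest group means were 1687 for PAX5 and 5214 for COL3A1.

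With cobomarsen, members rose and none fell in HuT102 and MyLa, MJ held rises and falls, and in HuT78 the few changes were falls. A probe set was tested where its mean over the arrays compared reached a signal of 73.9, and it was called at an adjusted p under 0.05 in limma, with Benjamini-Hochberg adjustment over every probe set tested. The probe sets of a gene are numbered here by mean log2 signal over the 56 arrays, 1 being the brightest, and the figures give the platform's identifier beside each number. Of the 22, INPP4B probe sets 3 and 4, RICTOR probe set 4 and MTOR probe set 2 were tested in no treatment comparison. For HuT102 at day 8, 9 of the 18 members' probe sets tested rose (18.0% of all rose) and 0 fell (16.2% of all), with 34.2% of all probe sets tested called either way. For HuT102 at day 4, 9 of the 18 members' probe sets tested rose (9.27% of all rose) and 0 fell (8.48% of all), with 17.7% called. The members' probe sets in HuT102 thus passed the test more often than probe sets at large on both days. These rises came from 4 genes on each day, and probe sets of the same gene are not independent. Since the members were chosen with earlier results of these data known, the shares are a description. For MJ, 2 of the 16 members' probe sets tested rose (13.3% of all rose) and 4 fell (12.9% of all) at day 8, with 26.2% called, while 3 of the 16 members' probe sets tested rose (11.8% of all rose) and 3 fell (10.1% of all) at day 4, with 21.8% called. For MyLa, 4 of the 12 members' probe sets tested rose (19.9% of all rose) and 0 fell (15.8% of all) at day 8, with 35.6% called, while 3 of the 12 members' probe sets tested rose (10.8% of all rose) and 0 fell (11.1% of all) at day 4, with 22.0% called. For HuT78, 0 of the 17 members' probe sets tested rose (6.43% of all rose) and 3 fell (8.85% of all), with 15.3% called. Over all probe sets falls outnumbered rises in HuT78, 2234 against 1622, but not after quantile normalization, 1167 against 1222. In MyLa and HuT78 the members' shares, 4 of 12 and 3 of 17 at day 8, lay near those of all probe sets. The median log2 change over the members' probe sets tested, beside that over all, was 0.52 beside 0.04 in HuT102 at day 8, 0.39 beside 0.01 in HuT102 at day 4, 0.11 beside 0.01 in MJ at day 8, 0.03 beside 0.03 in MJ at day 4, 0.21 beside 0.01 in MyLa at day 8, 0.08 beside -0.01 in MyLa at day 4 and -0.12 beside -0.07 in HuT78 at day 8. Since these are bulk samples, fewer cells of a type and less RNA per cell cannot be told apart.

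**Figure D1:**
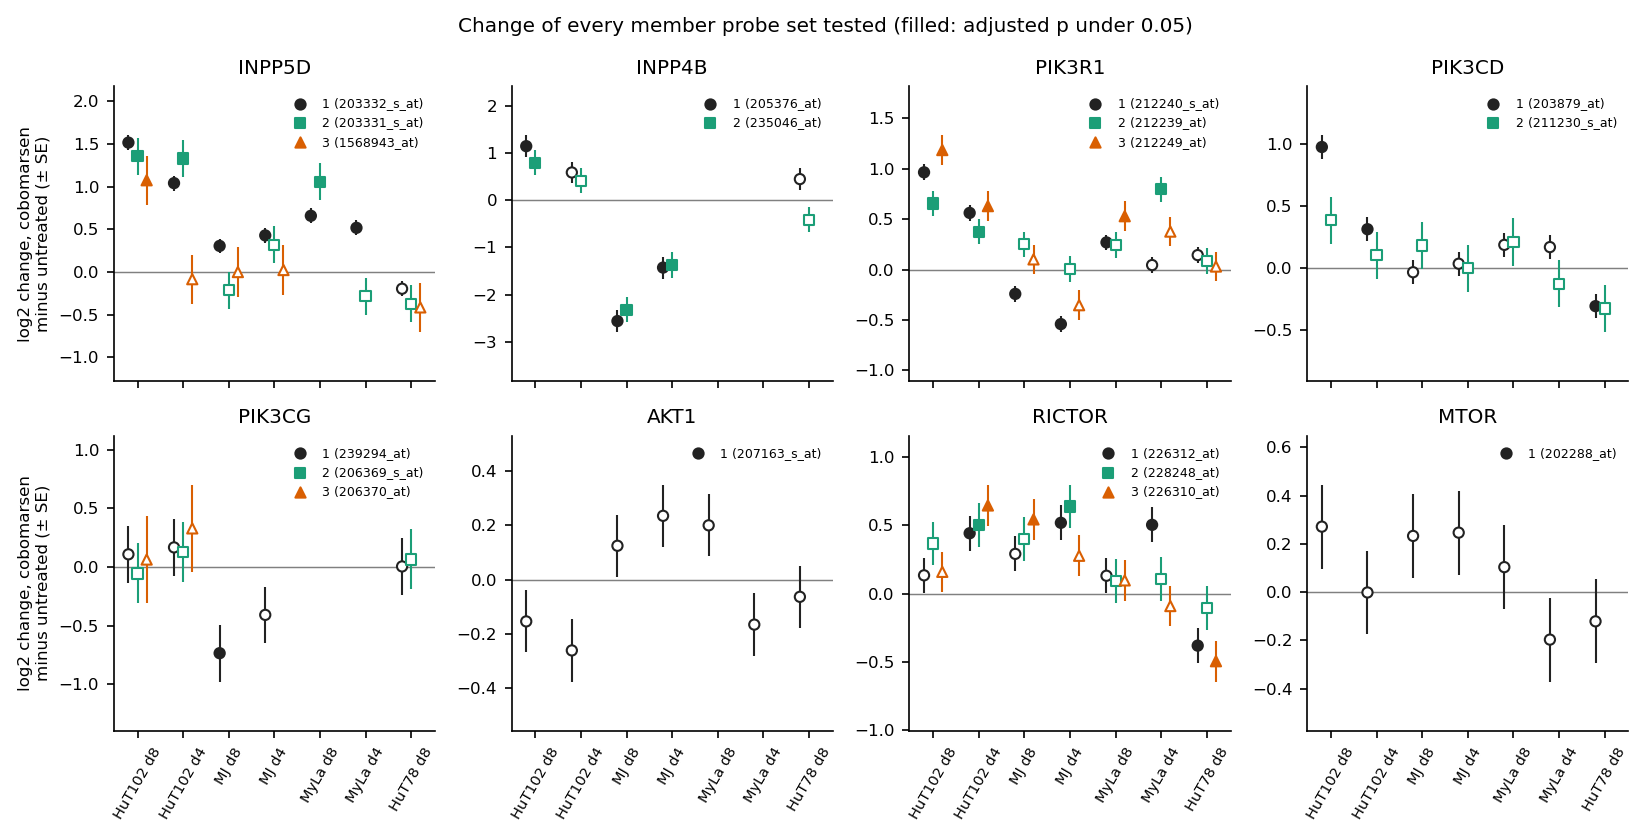
The log2 change (cobomarsen minus untreated, ± SE, vertical axis) of each member probe set tested is drawn for 7 comparisons of line and day (d8, day 8; d4, day 4), 1 panel for each gene, with filled symbols at an adjusted p under 0.05. INPP5D probe set 1 lies above 0 and filled in the 6 comparisons of HuT102, MJ and MyLa, INPP4B lies above 0 in HuT102 and below it in MJ, and AKT1 and MTOR have no filled symbol.

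INPP5D rose with cobomarsen in HuT102, MJ and MyLa on both days by its brightest probe set, number 1, and most in HuT102. It gave signals of 2118, 2198, 1843 and 2249 in the 4 cobomarsen arrays of HuT102 at day 8, against 692, 755, 725 and 721 in the 4 untreated arrays. The groups lay far apart, with every treated array above every untreated one. The means were 2102 ± 181 with cobomarsen and 723 ± 25.7 untreated (SD, n = 4 each), a 2.86-fold difference on the log2(signal + 16) scale (log2 change 1.52 ± 0.09 SE, adjusted p = 1.40e-20). At day 4 it gave signals of 1577, 1675, 1391 and 1576 in the cobomarsen arrays and 773, 767, 702 and 744 in the untreated arrays of HuT102. These groups did not overlap either (log2 change 1.04 ± 0.09 SE, adjusted p = 6.42e-14). The rise at day 8 exceeded that at day 4 by 0.47 on the log2 scale (limma interaction, adjusted p = 0.0116). With cobomarsen the summed level of the 9 T cell markers was also higher in HuT102, 30770.3 to 32244 against 23347 to 27781 untreated at day 8 and 25253 to 28308 against 20984 to 23211 at day 4, and its part in the result was not tested. The sum was led by bright markers such as CD2, at 14145 with cobomarsen and 10466 untreated at day 8. On that day CD4 averaged 2919 with cobomarsen and 3847 untreated, and TRAT1 762 and 1318, while the others were higher. At day 4 CD3E, CD3G, CD4 and TRAT1 had lower means with cobomarsen.

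The changes in MJ and MyLa were smaller. INPP5D probe set 1 had signals of 1100.3, 1235, 1196 and 1153 with cobomarsen in MJ at day 8, against 929, 1003, 874 and 975 untreated. It had 1259.8, 1378, 1262 and 1366 with cobomarsen at day 4 in MJ, against 1048, 950.1, 986 and 913 untreated. On each day the lowest treated MJ array lay above the highest untreated one (log2 change 0.31 ± 0.09 SE, adjusted p = 0.00527 at day 8, and log2 change 0.43 ± 0.09 SE, adjusted p = 0.000128 at day 4). In MyLa the signals were 1621, 1800.1, 1699 and 1761 with cobomarsen at day 8, against 1246, 1059, 1005 and 1039 untreated. At day 4 the MyLa signals were 2012, 2092, 1822 and 1488 with cobomarsen, against 1167, 1203, 1335 and 1429.9 untreated. Neither day overlapped in MyLa, but cobomarsen array 4 of day 4 lay close to the untreated range (log2 change 0.66 ± 0.09 SE, adjusted p = 1.48e-08 at day 8, and log2 change 0.52 ± 0.09 SE, adjusted p = 6.69e-06 at day 4). The difference between days missed the threshold in MJ (-0.12 with adjusted p = 0.961) and MyLa (0.14 with adjusted p = 0.491). The array upper quartile was higher with cobomarsen in MJ and in HuT102 at day 8, for example 449 against 431 untreated in MJ at day 8 (exact permutation p = 0.0286, the smallest that 4 against 4 allows, and 0.0667 adjusted over 7 comparisons). After quantile normalization, which evens out such shifts, the INPP5D change in MJ at day 8 was 0.29 (limma adjusted p = 0.00307; 0.00110 to 0.0289 over all settings). The T cell marker sum was higher with cobomarsen in MJ, 32267 to 34439.8 against 25102 to 27677 untreated at day 8 and 34555 to 36048 against 26504 to 32011 at day 4. CD2 went the other way in MJ, at 6184 with cobomarsen and 6965 untreated at day 8, while CD3D was at 12751 and 8272.5. In MyLa the sum was lower at day 8, 25787 to 27944 against 29109 to 34814 untreated, and higher at day 4, 31882 to 34424 against 27474 to 30378, and the part of either measure in the INPP5D change was not tested.

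HuT78, in which the host transcript was near background, gave no INPP5D call. INPP5D probe set 1 had signals of 1666, 1455, 1449 and 1469 with cobomarsen and 1830.1, 1749.8, 1952 and 1427 untreated in HuT78. The groups overlapped through untreated array 4, and the change of -0.20 ± 0.09 (SE) was not called (limma adjusted p = 0.120, 95% interval -0.37 to -0.02). It was called as a fall without HuT78 day 8 cobomarsen array 1 or HuT78 day 8 untreated array 4 (log2 change -0.29 to -0.24, adjusted p 0.0195 to 0.0439). With cobomarsen array 1 alone the INPP5D change was -0.05 (adjusted p = 1; 0.0195 to 1 over all settings). The day 8 change differed among the 4 lines (moderated F-test, adjusted p = 5.42e-16). It exceeded that of HuT78 by 1.71 in HuT102 (adjusted p = 3.47e-16), 0.50 in MJ (0.00130) and 0.85 in MyLa (2.33e-07). With HuT78 cobomarsen array 1 alone, these INPP5D differences were 1.57 (adjusted p = 2.41e-10), 0.36 (0.170, no longer called) and 0.71 (0.00146). The HuT102 change exceeded that of MJ by 1.21 (adjusted p = 2.25e-11) and that of MyLa by 0.86 (adjusted p = 1.21e-07), and MJ minus MyLa was -0.35 (adjusted p = 0.0259). The difference between MJ and MyLa lost its call without MJ day 8 cobomarsen array 1 or MyLa day 8 cobomarsen array 2 or MJ day 8 untreated array 2 or MyLa day 8 untreated array 3 or 4 (log2 change -0.33 to -0.32, adjusted p 0.0505 to 0.0601).

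**Figure D2:**
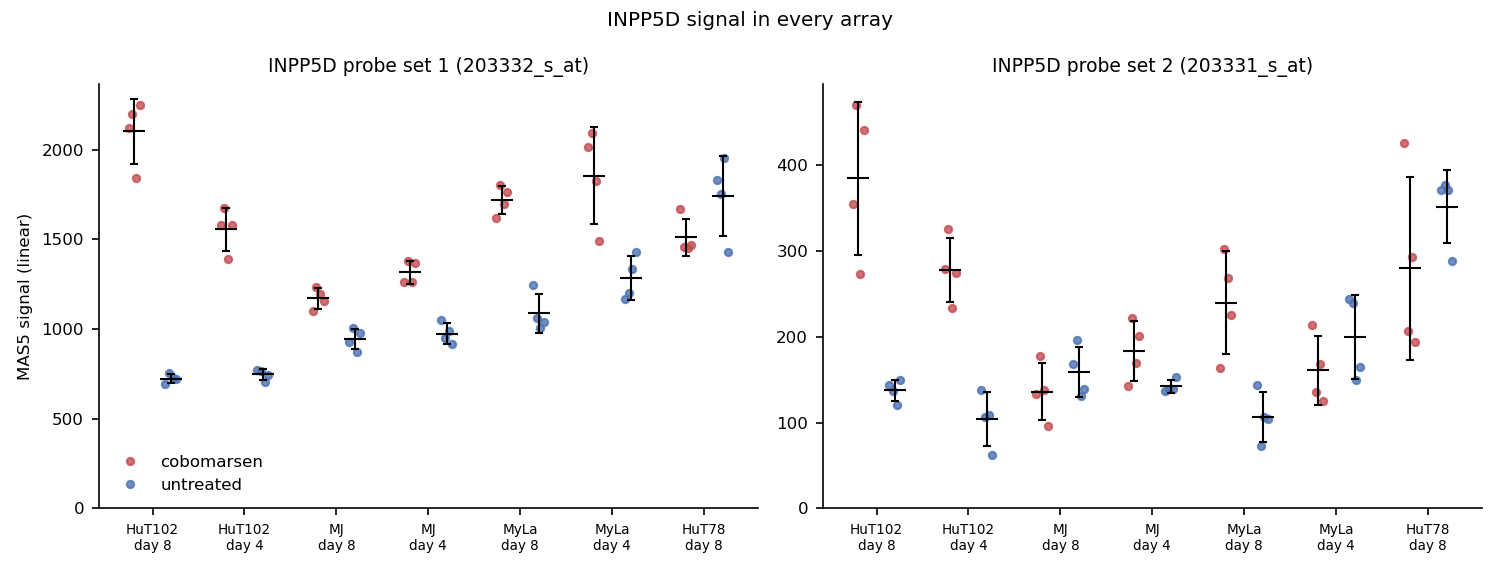
The MAS5 signal (linear vertical axis from 0) of INPP5D in every array is drawn for 2 probe sets, probe set 1 and probe set 2, with cobomarsen in red left of untreated in blue, and bars give the mean ± SD of 4 arrays. By probe set 1 the treated arrays lie above the untreated ones in HuT102, MJ and MyLa on both days, and in HuT78 the groups overlap.

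The other INPP5D probe sets rose in HuT102 at day 8 too, but not throughout. INPP5D probe set 2 had signals of 355, 469.6, 273 and 441 with cobomarsen in HuT102 at day 8, against 144, 137, 121 and 149 untreated. The groups did not overlap, nor did they at day 4, and it rose on both days (log2 change 1.36 ± 0.22 SE, adjusted p = 9.83e-07 at day 8, and log2 change 1.33 ± 0.22 SE, adjusted p = 4.68e-06 at day 4). In MyLa it rose at day 8 (log2 change 1.06, limma adjusted p = 8.26e-05) while the day 4 value was -0.28 (0.383), and the days differed by 1.34 (adjusted p = 0.00176). Untreated MyLa itself differed between days by this probe set, 107 ± 29.1 at day 8 against 199.7 ± 49.3 at day 4 (SD, n = 4 each; adjusted p = 0.0102). That difference between untreated days lost its call without MyLa day 4 untreated array 1 or 2 or MyLa day 8 untreated array 2 (log2 change -0.72 to -0.67, adjusted p 0.0518 to 0.0590). In MJ it gave -0.21 (adjusted p = 0.533) at day 8 and 0.32 (adjusted p = 0.331) at day 4, so the probe sets of this gene did not give the same answer there. In HuT78 its change was -0.37 (adjusted p = 0.259), not called with every array in. It was called as a fall without HuT78 day 8 cobomarsen array 1 (log2 change -0.59, adjusted p 0.0430). Probe set 3 was dim, with group means of 61.1 to 227, and was called in HuT102 at day 8 (log2 change 1.07 ± 0.29 SE, adjusted p = 0.00247), with overlapping groups. Over the 14 group means, the Pearson correlation with probe set 1 was 0.79 for probe set 2 and 0.27 for probe set 3.

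INPP4B, which acts on the product of SHIP1, changed in opposite directions in 2 lines: it fell in MJ and rose in HuT102 at day 8. INPP4B probe set 1 gave 158, 150.2, 138 and 164 in MJ with cobomarsen at day 8, against 955, 1016, 1017 and 918 untreated. At day 4 the MJ signals were 304, 294, 392 and 361 with cobomarsen, against 899, 928, 951 and 939 untreated. The treated arrays lay far below the untreated ones on both days, at 0.170 of the untreated level at day 8 (log2 change -2.56 ± 0.23 SE, adjusted p = 3.69e-13) and 0.372 at day 4 (log2 change -1.43 ± 0.23 SE, adjusted p = 3.15e-06). In HuT102 the signals were 281, 249, 249.8 and 258 with cobomarsen at day 8, against 91.2, 114, 111 and 120.0 untreated. That was a rise without overlap (log2 change 1.14 ± 0.23 SE, adjusted p = 7.74e-05). At day 4 HuT102 had 196, 247, 252 and 202 with cobomarsen and 128, 141, 146 and 159 untreated, also without overlap, but the change of 0.59 missed the threshold (adjusted p = 0.0727). It passed with log2(signal + 64) (INPP4B change 0.47, adjusted p = 0.00500) and with the HuT102 arrays alone (0.59, 0.0102), and its adjusted p ran from 0.00500 to 0.401 over all settings. The day 8 change in HuT102 exceeded that in MJ by 3.70 (limma interaction, adjusted p = 3.76e-13).

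INPP4B probe set 2 fell in MJ as well (log2 change -2.32 ± 0.27 SE, adjusted p = 6.72e-10 at day 8, and log2 change -1.37 ± 0.27 SE, adjusted p = 7.97e-05 at day 4). In HuT102 at day 8 it had 120.1 ± 25.1 with cobomarsen and 62.3 ± 12.4 untreated (SD, n = 4 each), without overlap, and it was called higher (limma adjusted p = 0.0175), although the untreated mean lay under 73.9. That call was lost without HuT102 day 8 cobomarsen array 3 or HuT102 day 8 untreated array 4 (log2 change 0.69 to 0.71, adjusted p 0.0577 to 0.0625). It was also lost with log2(signal + 1) for INPP4B probe set 2 (adjusted p = 0.145, and 0.00535 to 0.145 over all settings). MyLa held INPP4B near background by probe set 1, with means of 19.2 with cobomarsen and 17.6 untreated at day 8 and 20.9 with cobomarsen and 9.12 untreated at day 4, and no fold is given there. In HuT78, probe set 1 had 309 ± 55.2 with cobomarsen and 223 ± 42.5 untreated (SD, n = 4 each; adjusted p = 0.198), and probe set 2 pointed the other way (-0.41 with adjusted p = 0.326). The HuT78 value of probe set 1 was called as a rise with log2(signal + 64) (adjusted p = 0.0333), and its adjusted p ran from 0.0333 to 1 over all settings.

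PIK3R1, a regulatory subunit of class I PI3K, rose in HuT102 by its 3 probe sets on both days. PIK3R1 probe set 1 gave 2074, 2057, 1907 and 2494 in HuT102 with cobomarsen at day 8, against 947, 1220.0, 1061 and 1109 untreated. Treated and untreated arrays did not overlap (log2 change 0.96 ± 0.08 SE, adjusted p = 7.24e-15), nor at day 4 (log2 change 0.56 ± 0.08 SE, adjusted p = 1.98e-07). The rise was larger at day 8 than at day 4 by 0.40 (limma interaction, adjusted p = 0.0209). That difference lost its call without HuT102 day 4 cobomarsen array 1 or HuT102 day 8 cobomarsen array 4 or HuT102 day 4 untreated array 2 or HuT102 day 8 untreated array 1 (log2 change 0.33 to 0.38, adjusted p 0.0519 to 0.0927). It also lost it within the HuT102 arrays alone (adjusted p = 0.0652) and without the intensity trend (adjusted p = 0.0502), and its adjusted p ran from 0.00742 to 0.0927 over all settings. PIK3R1 probe set 2 rose by 0.66 at day 8 (adjusted p = 3.41e-05) and 0.38 at day 4 (0.0298). PIK3R1 probe set 3 rose by 1.19 at day 8 (3.08e-09) and 0.63 at day 4 (0.00125). For probe set 2 the day 4 call was lost without HuT102 day 4 cobomarsen array 1, 2 or 4 or HuT102 day 4 untreated array 3 or 4 (log2 change 0.32 to 0.38, adjusted p 0.0565 to 0.106). The PIK3R1 call was also lost with no filter (adjusted p = 0.0555) and without the intensity trend (adjusted p = 0.0526), and its adjusted p ran from 0.0112 to 0.106 over all settings.

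In MJ the PIK3R1 probe sets differed from each other. PIK3R1 probe set 1 gave 3779, 3786, 3584 and 3650.4 with cobomarsen at day 8, against 4243, 4475, 4334 and 4456 untreated. At day 4 it gave 3114, 2879, 3291 and 3058 with cobomarsen, against 4465, 4521, 4452 and 4533 untreated. On both days it fell without overlap (log2 change -0.24 ± 0.08 SE, adjusted p = 0.0165 at day 8, and log2 change -0.54 ± 0.08 SE, adjusted p = 2.92e-07 at day 4). PIK3R1 probe set 2 instead gave 0.25 (adjusted p = 0.150) at day 8 and 0.00 (adjusted p = 0.987) at day 4, neither called, with overlapping groups. The values of probe set 3 were 0.10 (adjusted p = 0.692) and -0.35 (adjusted p = 0.0800), also not called. The day 4 value of probe set 3 was called as a fall without MJ day 4 cobomarsen array 1 (log2 change -0.44, adjusted p 0.0420). It was also called within the MJ arrays alone (PIK3R1 adjusted p = 0.020, and 0.020 to 0.307 over all settings). Whether the fall holds for the PIK3R1 transcripts as a whole was not tested, since the probe sets may read different transcripts and no probe positions were used. The day 8 change by probe set 1 was 1.21 higher in HuT102 than in MJ (adjusted p = 1.26e-12), and by probe set 3 1.08 higher (6.58e-05).

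In MyLa, rises of PIK3R1 were called on different days by different probe sets. PIK3R1 probe set 2 gave 2099, 2222, 2447 and 2835 with cobomarsen at day 4, against 1417, 1379, 1300.4 and 1375 untreated. These groups lay apart (log2 change 0.80 ± 0.13 SE, adjusted p = 2.49e-06), whereas at day 8 they overlapped and the change was 0.25 (adjusted p = 0.128). The day 8 value was called without MyLa day 8 untreated array 4 (log2 change 0.34, adjusted p 0.0483). The change at day 8 minus that at day 4 was -0.55 (adjusted p = 0.0314), but untreated MyLa was itself higher at day 8 than at day 4 by 0.41 (adjusted p = 0.0280). The difference between days lost its call without MyLa day 4 cobomarsen array 4 or MyLa day 8 cobomarsen array 2 or 3 or MyLa day 4 untreated array 3 or MyLa day 8 untreated array 2 or 4 (log2 change -0.53 to -0.46, adjusted p 0.0558 to 0.0989). It also lost it with no filter (adjusted p = 0.0614) and without the intensity trend (adjusted p = 0.0561), and its adjusted p ran from 0.0152 to 0.0989 over all settings. The difference between untreated days lost its call without MyLa day 4 untreated array 2, 3 or 4 or MyLa day 8 untreated array 2 or 4 (log2 change 0.32 to 0.42, adjusted p 0.0509 to 0.160). It was also lost with no filter (adjusted p = 0.0553) and without the intensity trend (adjusted p = 0.0548), and its adjusted p ran from 0.0122 to 0.160 over all settings. At day 8 the called probe sets were probe set 1 (log2 change 0.27 ± 0.08 SE, adjusted p = 0.00528) and probe set 3 (log2 change 0.53 ± 0.15 SE, adjusted p = 0.00344), both without overlap. At day 4 they gave 0.04 (adjusted p = 0.747) and 0.38 (adjusted p = 0.0588), neither called, although the groups of probe set 3 did not overlap. The day 4 value of probe set 3 was called as a rise with the filter at the 75th percentile (adjusted p = 0.0431) and within the MyLa arrays alone (adjusted p = 0.0185), and its adjusted p ran from 0.0185 to 0.223 over all settings. In HuT78 the changes of probe sets 1, 2 and 3 were 0.14, 0.08 and 0.03, none called (limma adjusted p = 0.226, 0.736 and 0.927).

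**Figure D3:**
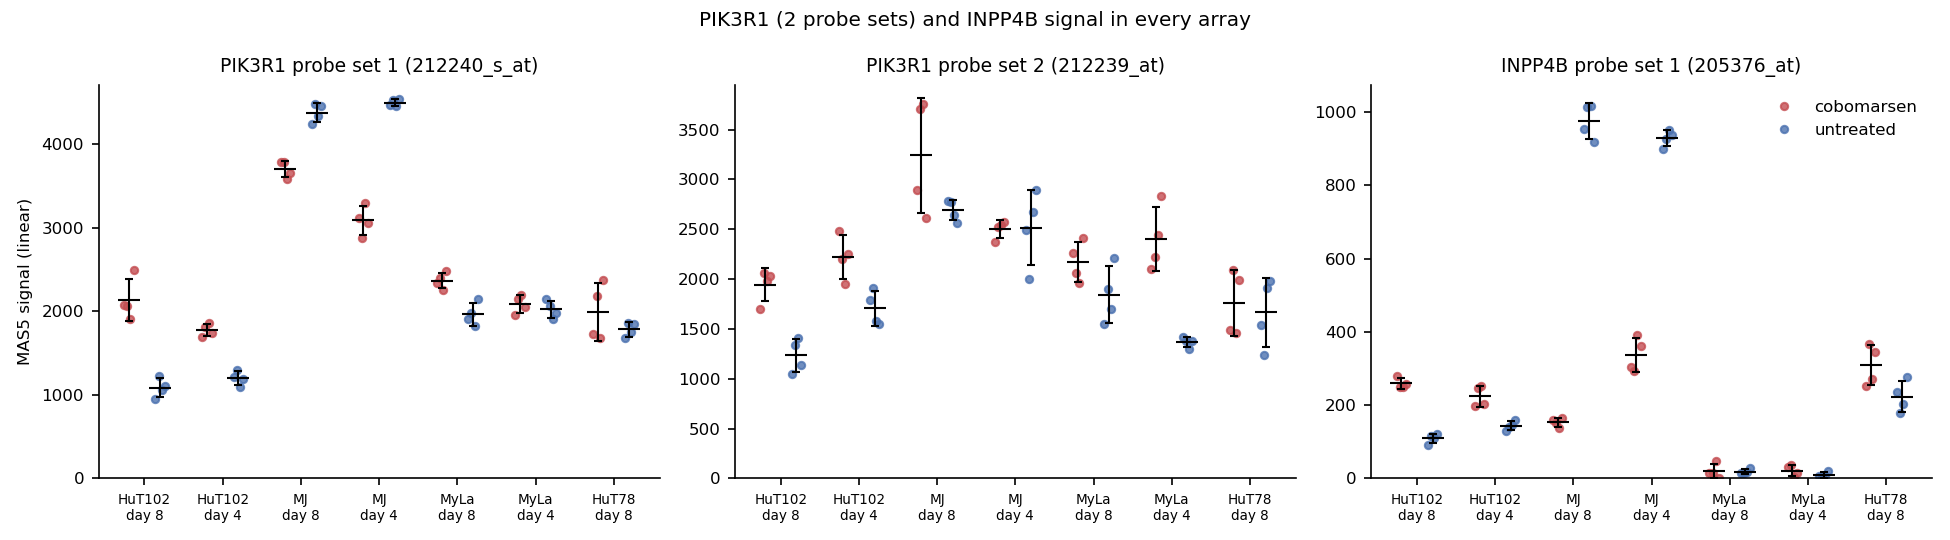
The MAS5 signal (linear vertical axis from 0) in every array is drawn for PIK3R1 probe set 1, PIK3R1 probe set 2 and INPP4B probe set 1, with cobomarsen in red left of untreated in blue and bars giving the mean ± SD of 4 arrays. In MJ the treated arrays lie below the untreated ones for probe set 1 and INPP4B but overlap them for probe set 2, and in MyLa INPP4B is near 0.

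PIK3CD, the delta catalytic subunit used by lymphocytes, rose in HuT102. PIK3CD probe set 1 gave 7336, 7466, 6691 and 8331 with cobomarsen at day 8, against 3752, 4284, 3264 and 3818 untreated. At day 4 the signals were 4959, 5636, 4882 and 3809 with cobomarsen, against 3454, 3611, 4175 and 4156 untreated. At day 8 the groups lay well apart (log2 change 0.98 ± 0.10 SE, adjusted p = 2.73e-12), while at day 4 cobomarsen array 4 fell inside the untreated range (log2 change 0.31 ± 0.10 SE, adjusted p = 0.0144). The day 8 change exceeded the day 4 change by 0.66 (limma interaction, adjusted p = 0.000800). The day 4 call was lost without HuT102 day 4 cobomarsen array 2 or HuT102 day 4 untreated array 1 or 2 (log2 change 0.24 to 0.29, adjusted p 0.0524 to 0.111). PIK3CD was not called in MJ or MyLa, at changes of -0.03 (adjusted p = 0.859) at day 8 in MJ, 0.04 (adjusted p = 0.853) at day 4 in MJ, 0.19 (adjusted p = 0.122) at day 8 in MyLa and 0.17 (adjusted p = 0.210) at day 4 in MyLa. The MyLa groups did not overlap at day 8, and that value was called after quantile normalization (PIK3CD 0.28, adjusted p = 0.0267) and within the MyLa arrays (0.19, 0.0393), and its adjusted p ran from 0.0267 to 0.230 over all settings. The dimmer PIK3CD probe set 2 was called in none of the 7 comparisons, at log2 changes of -0.33 to 0.39, the highest of them in HuT102 at day 8 (adjusted p = 0.112). Its HuT78 value was called as a fall without HuT78 day 8 cobomarsen array 1 (log2 change -0.52, adjusted p 0.0386).

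PIK3CG, the gamma catalytic subunit, was high in HuT102 and HuT78 and low in MJ and MyLa, and it fell in MJ at day 8. PIK3CG probe set 1 averaged 2942 ± 204 with cobomarsen and 2723 ± 75.7 untreated in HuT102 at day 8, and 2005 ± 126 and 1997 ± 103 in HuT78 (SD, n = 4 each). Neither change was called (HuT102 0.11 with adjusted p = 0.777, HuT78 0.01 with adjusted p = 0.993). In HuT102 at day 4 the change was not called either, although the groups did not overlap, at 2983 to 3098 with cobomarsen against 2550 to 2827 untreated. In MJ at day 8 it gave 152, 125, 147 and 158 with cobomarsen, against 276, 278, 257 and 203 untreated. That fall was called, without overlap (log2 change -0.73 ± 0.24 SE, adjusted p = 0.0180), whereas the day 4 groups overlapped (-0.41 with adjusted p = 0.254). The day 8 call was lost without MJ day 8 cobomarsen array 2 or MJ day 8 untreated array 2 (log2 change -0.69 to -0.67, adjusted p 0.0502 to 0.0578). It was also lost with log2(signal + 1) (PIK3CG -0.79, adjusted p = 0.183, and 0.000325 to 0.183 over all settings). MyLa means lay under 73.9, at 40.0 with cobomarsen against 36.4 untreated at day 8 and 22.5 against 15.1 at day 4. The PIK3CG probe sets 2 and 3 were tested in HuT102, and probe set 2 in HuT78 as well, with no call.

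AKT1 and MTOR, the kinases at the centre of the pathway, were called in none of the 7 treatment comparisons. The AKT1 groups did not overlap in HuT102 at day 8, at 1231 to 1415 with cobomarsen against 1420 to 1563 untreated. Those of MTOR probe set 1 did not in MyLa at day 4, at 234 to 249 with cobomarsen against 251 to 304 untreated. AKT1 probe set 1 gave log2 changes of -0.26 in HuT102 at day 4 to 0.24 in MJ at day 4 (limma adjusted p = 0.112 and 0.147). The MJ day 4 value was called without MJ day 4 untreated array 2 (log2 change 0.33, adjusted p 0.0496). The widest 95% intervals still allow AKT1 changes of -0.49 in HuT102 and 0.47 in MJ at day 4. MTOR probe set 1 gave -0.20 in MyLa at day 4 to 0.27 in HuT102 at day 8 (adjusted p = 0.466 and 0.241), with a standard error of 0.17. The phosphorylation that switches AKT was not measured by these arrays.

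RICTOR, the scaffold of mTOR complex 2 that phosphorylates AKT, rose early in HuT102. RICTOR probe set 1 gave 992, 944, 872 and 895 with cobomarsen at day 4, against 650.1, 623, 699 and 740.2 untreated. At day 8 it gave 1068, 954, 1276 and 1144 with cobomarsen, against 1029.6, 913, 1129 and 963 untreated. The day 4 groups lay apart (log2 change 0.44 ± 0.13 SE, adjusted p = 0.0107) and the day 8 groups overlapped (0.13 with adjusted p = 0.464), but the difference between days was not called (-0.31 with adjusted p = 0.454). Untreated HuT102 was itself higher at day 8 than at day 4, by 0.56 (adjusted p = 0.00317). At day 4, probe set 2 rose by 0.50 (0.0213) and probe set 3 by 0.65 (0.00105), both without overlap. The call of probe set 2 was lost without HuT102 day 4 cobomarsen array 2 or HuT102 day 4 untreated array 3 (log2 change 0.42 to 0.47, adjusted p 0.0586 to 0.0976). Its day 8 value was called without HuT102 day 8 cobomarsen array 1 (log2 change 0.48, adjusted p 0.0239). That value was also called within the HuT102 arrays alone (adjusted p = 0.0354), and its adjusted p ran from 0.0239 to 0.353 over all settings.

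RICTOR also rose in MJ and in MyLa at day 4. RICTOR probe set 1 gave 1227, 1083, 1665 and 1734 with cobomarsen in MJ at day 4, against 877, 789.5, 1008 and 1281 untreated. The groups overlapped, through untreated array 4 (log2 change 0.52 ± 0.13 SE, adjusted p = 0.00185), and probe set 2 rose too, also with overlap (log2 change 0.64 ± 0.16 SE, adjusted p = 0.00204). RICTOR probe set 3 gave 0.28 (adjusted p = 0.197) there, not called, with overlapping groups. In MJ at day 8 only probe set 3 was called among the 3 (log2 change 0.54 ± 0.15 SE, adjusted p = 0.00388), while probe set 1 and probe set 2 gave 0.29 (adjusted p = 0.0923) and 0.40 (adjusted p = 0.0579), all 3 without overlap. The day 8 value of probe set 2 was called without MJ day 8 untreated array 2 (log2 change 0.48, adjusted p 0.0356). It was also called with the filter at the 75th percentile (adjusted p = 0.0412), and its adjusted p ran from 0.0356 to 0.195 over all settings. In MyLa at day 4, probe set 1 gave 2055, 2236, 1835 and 1359.7 with cobomarsen, against 1213, 1366, 1286 and 1315 untreated. It was called (log2 change 0.50 ± 0.13 SE, adjusted p = 0.00281) with cobomarsen array 4 inside the untreated range, and the other probe sets gave 0.11 and -0.09, not called. In MyLa at day 8 no RICTOR probe set was called. Probe set 1 then gave 1544, 1180, 1479 and 1468 with cobomarsen, against 1213, 1191, 1299 and 1461 untreated, with overlapping groups.

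The calls in HuT78 were the falls of RICTOR probe set 1, RICTOR probe set 3 and PIK3CD probe set 1, and each was lost when arrays were left out. RICTOR probe set 2 was not called. Its signals were 1498, 1754, 1132 and 1864 with cobomarsen, against 1723, 1524, 1684 and 1682 untreated, with overlapping groups. RICTOR probe set 3 gave 608, 408, 346 and 442 with cobomarsen, against 659, 637, 681 and 547 untreated. Array 1 lay inside the untreated range and arrays 2, 3 and 4 below it (log2 change -0.50 ± 0.15 SE, adjusted p = 0.0183). RICTOR probe set 1 changed by -0.38 (adjusted p = 0.0363) and PIK3CD probe set 1 by -0.31 (adjusted p = 0.0223), with overlapping groups. Fitted within the HuT78 arrays alone, none was called (adjusted p = 0.167, 0.166 and 0.234 for RICTOR probe set 3, RICTOR probe set 1 and PIK3CD). With cobomarsen array 1 alone, the lone array being assumed to vary like the other groups, the changes were -0.05 (1), -0.10 (1) and -0.18 (1), in the same order. RICTOR probe set 3 also lost its call without HuT78 day 8 cobomarsen array 2 or 3 or HuT78 day 8 untreated array 1 or 3 (log2 change -0.47 to -0.38, adjusted p 0.0548 to 0.108). RICTOR probe set 1 lost it without HuT78 day 8 cobomarsen array 2, 3 or 4 or HuT78 day 8 untreated array 1, 2 or 3 (log2 change -0.40 to -0.31, adjusted p 0.0551 to 0.140). PIK3CD lost it without HuT78 day 8 cobomarsen array 2 or 4 or HuT78 day 8 untreated array 1 or 3 (log2 change -0.29 to -0.18, adjusted p 0.0661 to 0.231). RICTOR probe set 1 also lost its call with no filter (adjusted p = 0.0724) and without the intensity trend (adjusted p = 0.0613), and RICTOR probe set 3 after quantile normalization (adjusted p = 0.119). Arrays 2 to 4 were those with the low upper quartiles, and T cell marker sums in HuT78 were 24663 to 31876 with cobomarsen against 24626 to 26406 untreated. The part of the quartile shift in these falls was not tested.

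Across lines, 11 of 17 member probe sets tested had a day 8 change that differed among the 4 lines, where 55.9% of all probe sets did. Between days, 3 of 18 differed in HuT102 (4.53% of all), 2 of 12 in MyLa (13.4%) and 0 of 16 in MJ (0.630%). The 3 in HuT102 were INPP5D probe set 1, PIK3R1 probe set 1 and PIK3CD probe set 1, each with a larger rise at day 8. INPP4B probe set 1 in MJ, with a fall deeper at day 8, gave a difference of -1.13 (adjusted p = 0.108). That INPP4B difference was called with log2(signal + 64) (adjusted p = 0.00123) and within the MJ arrays alone (adjusted p = 8.09e-05), and its adjusted p ran from 8.09e-05 to 0.807 over all settings.

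The untreated lines differed at day 8 in 17 of 17 member probe sets tested, beside 88.0% of all probe sets (limma, moderated F-test), though the calls of AKT1 and MTOR were lost when single arrays were left out. Levels of HuT102 and MJ set against those of MyLa and HuT78 also differ in the series of title numbers, and its part was not tested. AKT1 (adjusted p = 0.0338) lost its call without MJ day 8 untreated array 2 or 4 or HuT78 day 8 untreated array 1 or 2 (adjusted p 0.0905 to 0.142) and with no filter (adjusted p = 0.0528), after quantile normalization (adjusted p = 0.0621) and without the intensity trend (adjusted p = 0.0559). MTOR (adjusted p = 0.0267) lost it without HuT102 day 8 untreated array 4 or HuT78 day 8 untreated array 2 or MyLa day 8 untreated array 4 (adjusted p 0.0579 to 0.106) and after quantile normalization (adjusted p = 0.102). INPP5D probe set 1 averaged 723 ± 25.7 in HuT102, 945 ± 56.7 in MJ, 1087 ± 108 in MyLa and 1739.8 ± 224 in HuT78 (SD, n = 4 each). The order ran from HuT102 at the bottom through MJ and MyLa to HuT78 at the top, and each neighbouring pair differed in the test (HuT102 minus MJ -0.38 with adjusted p = 0.000213, MJ minus MyLa -0.20 with adjusted p = 0.0461, MyLa minus HuT78 -0.67 with adjusted p = 1.48e-09). The step between MJ and MyLa lost its call without MJ day 8 untreated array 1, 3 or 4 or MyLa day 8 untreated array 1 or 2 (log2 change -0.21 to -0.13, adjusted p 0.0511 to 0.224). It also lost it with no filter (adjusted p = 0.0754) and without the intensity trend (adjusted p = 0.0634), and its adjusted p ran from 0.0172 to 0.224 over all settings. The dimmer INPP5D probe sets gave another order, with HuT78 again highest but MyLa lowest. INPP5D probe set 2 averaged 138 ± 12.3 in HuT102, 159 ± 29.6 in MJ, 107 ± 29.1 in MyLa and 352 ± 42.4 in HuT78, and probe set 3 75.8 ± 35.4 in HuT102, 126 ± 34.4 in MJ, 70.1 ± 33.8 in MyLa and 227 ± 46.8 in HuT78. MJ minus MyLa was 0.52 (adjusted p = 0.0323) by probe set 2 and 0.81 (adjusted p = 0.0135) by probe set 3, with overlapping groups, so both were called in the direction opposite to probe set 1. The call of probe set 2 was lost without MJ day 8 untreated array 1 or 2 or MyLa day 8 untreated array 2 or 4 (log2 change 0.38 to 0.52, adjusted p 0.0520 to 0.155). That of probe set 3 was lost without MJ day 8 untreated array 1 or MyLa day 8 untreated array 3 (log2 change 0.44 to 0.70, adjusted p 0.0518 to 0.180). INPP5D probe set 2 also lost it with no filter (adjusted p = 0.0538) and after quantile normalization (adjusted p = 0.280), and probe set 3 after quantile normalization (adjusted p = 0.0893). With cobomarsen at day 8 the order by probe set 1 differed, since HuT102 then had the highest of the 14 group means, 2102. INPP4B probe set 1 averaged 109 ± 12.6 in HuT102, 976 ± 48.4 in MJ, 17.6 ± 6.61 in MyLa and 223 ± 42.5 in HuT78. MJ was highest, HuT102 lay below HuT78 (-0.92 with adjusted p = 0.000450), and MyLa was near background. PIK3R1 probe set 1 averaged 1084 ± 113 in HuT102, 4377 ± 109 in MJ, 1963 ± 136 in MyLa and 1781 ± 87.4 in HuT78. MJ again stood highest and HuT102 lowest, while MyLa and HuT78 did not differ beyond their spread (0.14 with adjusted p = 0.113).

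Among the catalytic subunits, PIK3CD probe set 1 averaged 3779 ± 417 in HuT102, 8983 ± 219.8 in MJ, 9322 ± 272 in MyLa and 4988 ± 369 in HuT78. MJ and MyLa did not differ beyond their spread (-0.05 with adjusted p = 0.652), and both lay above HuT78, which lay above HuT102 (HuT102 minus HuT78 -0.40 with adjusted p = 0.000215). PIK3CG probe set 1 averaged 2723 ± 75.7 in HuT102, 254 ± 34.8 in MJ, 36.4 ± 20.2 in MyLa and 1997 ± 103 in HuT78. HuT102 and HuT78 did not overlap, but their difference missed the threshold (0.45 with adjusted p = 0.0977), and both stood far above MJ. The PIK3CG difference was called with log2(signal + 64) (adjusted p = 0.00313) and within the HuT102 and HuT78 arrays alone (adjusted p = 1.21e-06), and its adjusted p ran from 1.21e-06 to 0.349 over all settings. RICTOR probe set 1 averaged 1009 ± 93.5 in HuT102, 1307 ± 98.5 in MJ, 1291 ± 122 in MyLa and 2604 ± 274 in HuT78, with HuT78 highest, HuT102 lowest and MJ and MyLa not apart (0.02 with adjusted p = 0.911). The RICTOR difference of HuT102 minus MyLa was -0.35 (adjusted p = 0.0154). It lost its call without HuT102 day 8 untreated array 2 or MyLa day 8 untreated array 4 (log2 change -0.31 to -0.29, adjusted p 0.0542 to 0.0655). AKT1 probe set 1 averaged 1477 ± 61.0 in HuT102, 1297 ± 232 in MJ, 1372 ± 97.4 in MyLa and 1636 ± 205 in HuT78, and MTOR probe set 1 255 ± 60.6 in HuT102, 313 ± 24.1 in MJ, 259 ± 68.6 in MyLa and 354 ± 56.8 in HuT78. Between days, untreated wells differed in 3 of 17 member probe sets in HuT102 (6.68% of all), 2 of 12 in MyLa (9.41%) and 0 of 16 in MJ (1.31%).

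**Figure D4:**
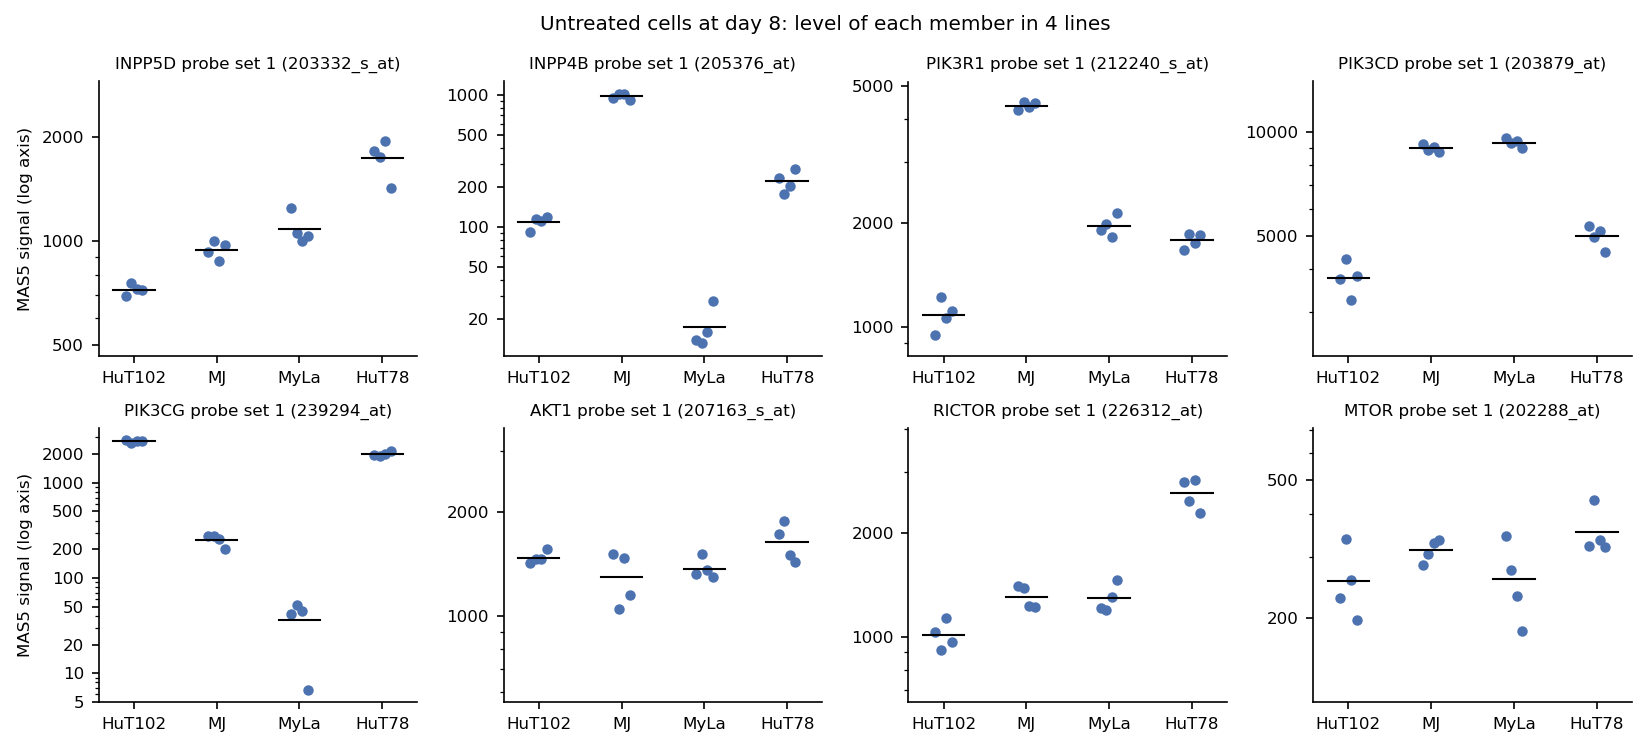
The MAS5 signal (log vertical axis, a separate range in each panel) of the brightest probe set of each member is drawn for the untreated arrays of 4 lines at day 8, with points for arrays and a line at the mean of 4. INPP5D is lowest in HuT102 and highest in HuT78, INPP4B and PIK3R1 are highest in MJ, and PIK3CG is high in HuT102 and HuT78.

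The wider pathway was read from 6 lists of 58 genes (other PI3K subunits, phosphoinositide phosphatases, SHIP1 adaptor partners, AKT regulators, mTOR complex genes, and substrates and PIP3 readers), of which 51 had a probe set. By the brightest probe set of each gene, 18 rose and 4 fell of 48 tested in HuT102 at day 8 (all genes, 18.4% and 20.7%). At the earlier time 14 rose and 4 fell of 47 tested in HuT102 at day 4 (all genes, 9.55% and 12.0%). On both days rises thus outnumbered falls in the lists, while falls outnumbered rises over all genes. In the second line, where this also held, 12 rose and 6 fell of 49 tested in MJ at day 8 (all genes, 14.5% and 17.6%), and 12 rose and 4 fell of 48 tested in MJ at day 4 (all genes, 12.6% and 13.5%). In the third, 12 rose and 6 fell of 43 tested in MyLa at day 8 (all genes, 23.0% and 17.8%), and 7 rose and 10 fell of 45 tested in MyLa at day 4 (all genes, 12.9% and 12.3%). In the fourth, 1 rose and 10 fell of 48 tested in HuT78 at day 8 (all genes, 9.61% and 10.3%). The median log2 change over the pathway genes tested, beside that over all genes, was 0.21 beside 0.00 in HuT102 at day 8, 0.03 beside -0.03 in HuT102 at day 4, 0.06 beside -0.02 in MJ at day 8, 0.11 beside 0.00 in MJ at day 4, 0.06 beside 0.02 in MyLa at day 8, -0.10 beside 0.00 in MyLa at day 4 and -0.11 beside -0.05 in HuT78 at day 8. In HuT78, 3 of the 4 cobomarsen arrays stood apart.

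Some genes moved the same way in several lines, and the genes named here for that were picked after their values were seen. How often genes at large did so was not counted, so the recurrence is not shown to be particular to this pathway. RHEB, the GTPase that activates mTOR complex 1, INPP4A, a relative of INPP4B, and RPS6KB1, the S6 kinase that mTOR phosphorylates, rose in the 6 comparisons of HuT102, MJ and MyLa (limma). In the order HuT102, MJ and MyLa, with day 8 before day 4 in each, RHEB changed on the log2 scale by 0.56, 0.69, 1.02, 0.88, 0.70 and 1.13. INPP4A changed by 1.10, 0.72, 0.79, 0.71, 0.52 and 0.41, and RPS6KB1 by 0.20, 0.42, 0.77, 0.88, 1.04 and 0.95. PIK3IP1, an inhibitor of PI3K, rose in 5 of the 6. Its signal in HuT102 at day 8 was 1043 ± 69.2 with cobomarsen and 301 ± 69.6 untreated (SD, n = 4 each; adjusted p = 1.07e-14). EIF4EBP1, a translation repressor that mTOR phosphorylates, fell in 5 of the 6, for example 2203 ± 80.8 with cobomarsen and 3568 ± 152 untreated in MJ at day 8 (adjusted p = 6.17e-09). PHLPP1, a phosphatase of AKT, rose in HuT102 and MJ on both days, whereas its relative PHLPP2 fell in HuT102 on both days and in MJ and MyLa at day 4.

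**Figure D5:**
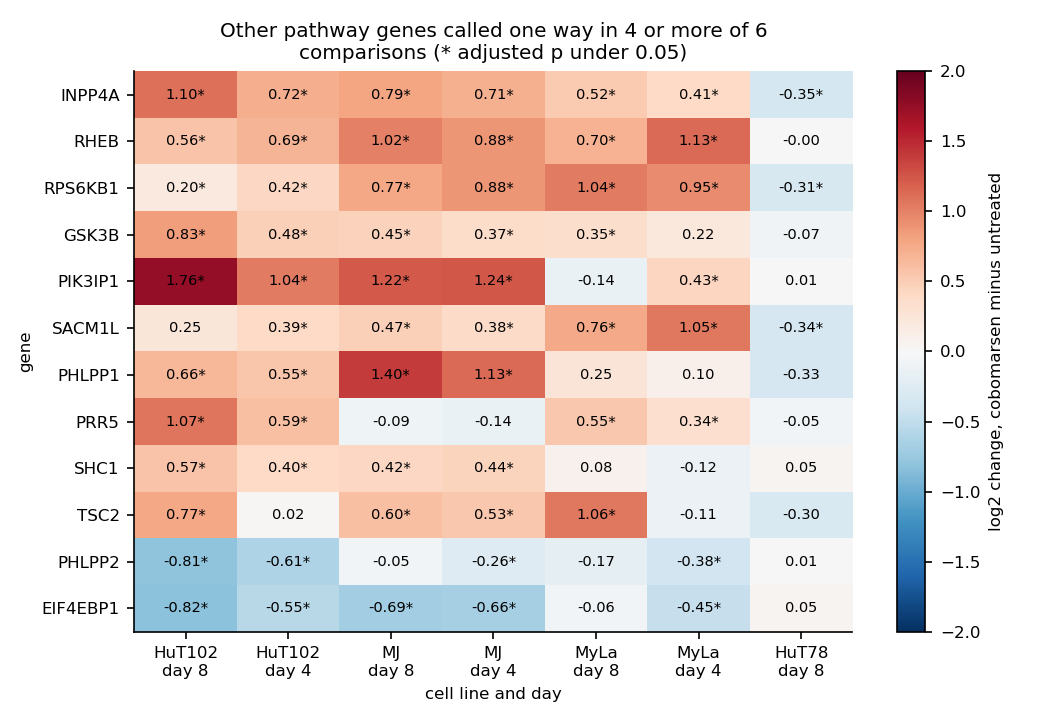
The log2 change (cobomarsen minus untreated, colour and number) is drawn for the 12 pathway genes (rows) called in 1 direction in at least 4 of the 6 comparisons of HuT102, MJ and MyLa, over 7 comparisons of line and day (columns), with a star at an adjusted p under 0.05. INPP4A, RHEB and RPS6KB1 are positive and starred in the 6, and EIF4EBP1 is negative in the 6 and starred in 5. The share of all genes called so was not counted.

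The genes whose group means followed INPP5D probe set 1 most closely were taken by Pearson correlation over the 14 group means, among 11713 genes. They were ABTB1 (0.90), NEMP1 (0.90), FOXO3 (0.90), TADA2B (0.90) and EIF3K (0.89). The 14 points share lines and arrays, so the correlations are a description. Among the members, RICTOR probe set 1 was nearest with 0.56, at rank 364, followed by PIK3CD with 0.32. INPP4B had -0.21.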

How the data were processed

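Biotin-labelled RNA of 56 samples was measured on Affymetrix arrays. The deposited values are signal intensity on a linear scale made with MAS5, per the submitters' processing notes, and scaled to a common trimmed mean, as the values show. Probe sets were matched to genes through the platform annotation; the genome build behind it is not given in the sources used here. Of 54675 probe sets, 62 controls were left out and 54613 fitted as log2(signal + 16) as 14 group means in a single model (limma 3.58.1, R 4.3.3; 42 residual degrees of freedom, variances moderated along an intensity trend). The two-sided moderated tests were adjusted by Benjamini-Hochberg over the probe sets whose mean reached log2 6.49. There were 27 comparisons. Alternatives were log2(signal + 1), log2(signal + 64), no filter, a stricter filter, quantile normalization, 1 probe set per gene, fewer lines in the model, no trend, leaving out each array and, added after seeing the data, HuT78 with cobomarsen array 1 alone. Quality measures were compared by exact permutation. The members, lists and the rule for named genes were chosen with earlier results of these data known. The rule allowed all member probe sets, up to 4 rising and 4 falling pathway genes in each comparison, and the 5 genes most like INPP5D; exceptions are stated. Data of MJ at day 8 were simulated over 54613 probe sets, with 100 changed by each size and the rest left unchanged by treatment. Of those tested, 47.5% of changes of log2 0.5 and 87.9% of log2 1 were recovered. In the real comparison far more probe sets were called, 7215 of 27516 tested, so these rates do not carry over to it. The number of arrays limits the precision. Figures were drawn with Python 3.11.15 and Matplotlib 3.10.9.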

Additional observations from a re-analysis of the deposited data

Results flagged for a closer look

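In 8 of 218 member groups of 4 arrays at or above a signal of 73.9, 1 array lay far from the other 3 by Dixon's criterion on the log2 scale, which chance gives in about 1 of 20 groups. INPP5D probe set 1 had 1666 in cobomarsen array 1 of HuT78 at day 8, and 1449 to 1469 in the others. INPP5D probe set 2 had 288 in untreated array 4 of HuT78 at day 8, and 371 to 376 in the others. INPP4B probe set 2 had 69.6 in cobomarsen array 3 of HuT78 at day 8, and 153 to 161 in the others. PIK3CD probe set 2 had 349 in cobomarsen array 4 of HuT102 at day 8, and 209 to 226 in the others. PIK3CG probe set 1 had 3098 in cobomarsen array 2 of HuT102 at day 4, and 2983 to 3002 in the others. RICTOR probe set 2 had 376 in cobomarsen array 3 of MyLa at day 8, and 478 to 499 in the others. MTOR probe set 1 had 404 in untreated array 1 of HuT102 at day 4, and 281 to 290.2 in the others. MTOR probe set 1 had 439 in untreated array 2 of HuT78 at day 8, and 319.9 to 335 in the others.

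The change with cobomarsen differed between day 8 and day 4 (limma interaction) for 5 probe sets, as day 8 minus day 4. In HuT102 the difference was 0.47 for INPP5D probe set 1, 0.40 for PIK3R1 probe set 1 and 0.66 for PIK3CD probe set 1. In MyLa it was 1.34 for INPP5D probe set 2 and -0.55 for PIK3R1 probe set 2. The day 8 change differed among the 4 lines for 11 probe sets by the moderated F-test. The adjusted p was 5.42e-16 for INPP5D probe set 1, 1.03e-06 for probe set 2 and 0.0123 for probe set 3. It was 3.22e-13 for INPP4B probe set 1 and 2.15e-08 for probe set 2. PIK3R1 had 4.64e-12 for probe set 1, 0.0323 for probe set 2 and 1.23e-05 for probe set 3. PIK3CD probe set 1 had 9.47e-11, and RICTOR had 0.00832 for probe set 1 and 0.000494 for probe set 3. With HuT78 cobomarsen array 1 alone, INPP5D probe set 3 (adjusted p = 0.0629), RICTOR probe set 1 (adjusted p = 0.536) and RICTOR probe set 3 (adjusted p = 0.121) lost the F-test call. PIK3R1 probe set 2 also lost it without HuT102 day 8 cobomarsen array 2, 3 or 4 or HuT78 day 8 cobomarsen array 1 or 3 or HuT102 day 8 untreated array 1 or 4 or HuT78 day 8 untreated array 3 or 4 (adjusted p 0.0567 to 0.107) and with no filter (adjusted p = 0.0594) and without the intensity trend (adjusted p = 0.0584). INPP5D probe set 3 also lost it after quantile normalization (adjusted p = 0.0528).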

How the results depend on the processing

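The 6 rises of INPP5D probe set 1 in HuT102, MJ and MyLa kept direction and call under the settings run, leaving out each array in turn included. In HuT78 its change ran from -0.29 to -0.14 when 1 array was left out. Of 109 member values in the 7 treatment comparisons, 40 were called, and none called changed sign under an alternative. The calls lost or gained in these comparisons stand beside their values above. No paired analysis was run because the labels give no replicate numbers shared by the groups. The title numbers alternate between untreated and cobomarsen samples in HuT102, MJ and HuT78, and whether neighbours are pairs is not given. In MyLa the cobomarsen samples of each day are numbered before the untreated ones, so treatment there cannot be told apart from that order.

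The count of probe sets called was the measure set at the outset, and 52 of 275 alternative values differed from the main one by over 1.5 times. By the percent of probe sets tested it would have been 60, and by the count of genes 21. With 1 probe set per gene, which tests fewer probe sets, the counts were 2671 for HuT102 day 4, 4682 for HuT102 day 8, 3266 for MJ day 4, 4013 for MJ day 8 and 2938 for MyLa day 4. They were 4564 for MyLa day 8, 2415 for HuT78 day 8, 1876 for the day difference of MyLa, 7525 for the F-test of day 8 changes and 4277 for the day 8 change of HuT102 minus HuT78. The same setting gave 4110 for the day 8 change of MJ minus HuT78, 4330 for the day 8 change of MyLa minus HuT78, 3339 for the day 8 change of HuT102 minus MJ, 4482 for the day 8 change of HuT102 minus MyLa and 3887 for the day 8 change of MJ minus MyLa. They were 1001 for untreated days of HuT102, 191 for untreated days of MJ, 1446 for untreated days of MyLa, 10602 for the F-test of untreated levels and 6799 for untreated HuT102 against MJ. The same setting gave 7962 for untreated HuT102 against MyLa, 8524 for untreated HuT102 against HuT78, 7597 for untreated MJ against MyLa, 8028 for untreated MJ against HuT78 and 8471 for untreated MyLa against HuT78. With a filter at the 75th percentile, which also tests fewer, they were 230 for untreated days of MJ, 12518 for the F-test of untreated levels, 8445 for untreated HuT102 against MJ, 9603 for untreated HuT102 against MyLa, 10155 for untreated HuT102 against HuT78, 9222 for untreated MJ against MyLa, 9912 for untreated MJ against HuT78 and 10299 for untreated MyLa against HuT78. For HuT78, 3856 were called, against 2389 after quantile normalization, 3 within the HuT78 arrays, 21 with cobomarsen array 1 alone (added after seeing the data) and 1887 to 6516 without 1 array. With array 1 alone the day 8 change of HuT102, MJ and MyLa minus HuT78 gave 3817, 2920 and 3144. For the day difference of MJ, 172 were called, against 99 and 279 with log2(signal + 1) and log2(signal + 64), 272 after quantile normalization, 574 within MJ arrays, 87 without the trend and 89 to 149 without 1 array. For untreated days of MJ, 353 were called, against 575 with log2(signal + 64), 968 within MJ arrays and 151 to 418 without 1 array. Without 1 array the range was 1056 to 1965 for untreated days of HuT102 and 1299 to 2697 for MyLa. Except for the settings that test fewer probe sets or use fewer arrays, the cause was not tested. Quantile normalization shifted the median of all probe sets by -0.13 for the day 8 change of HuT102 minus HuT78, -0.12 for MJ minus HuT78 and -0.10 for untreated MJ against MyLa. The calls for HuT102 minus HuT78 were 4671 higher and 3436 lower, against 3491 and 4065 with it, for HuT78 1622 and 2234, against 1222 and 1167, and for untreated days of MJ 263 and 90, against 268 and 149.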

Other observations

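Some pathway genes that are no members moved in opposite directions or in some lines only, and differences between lines were not tested for them. PREX1, a PIP3-dependent activator of the GTPase Rac, had 613 ± 134 with cobomarsen and 138 ± 41.6 untreated in HuT102 at day 8 (SD, n = 4 each; limma adjusted p = 2.76e-11). In MJ at day 8 it had 163 ± 14.3 with cobomarsen and 886 ± 266 untreated (adjusted p = 1.22e-12), so it rose in the first line and fell in the second. PIK3R6, a regulatory partner of PIK3CG, fell in HuT102 at day 8, with 622 ± 37.9 with cobomarsen and 1431 ± 185 untreated (adjusted p = 1.09e-06). TEC, a kinase that binds PIP3, rose there, with 312 ± 54.2 with cobomarsen and 91.9 ± 37.7 untreated (adjusted p = 3.14e-05). TEC was tested in 4 of the 6 comparisons of HuT102, MJ and MyLa and rose in 3. The others were HuT102 at day 4 (limma adjusted p = 0.0276) and MJ at day 4. In MJ it had 314 ± 21.7 with cobomarsen and 130 ± 43.4 untreated (limma adjusted p = 0.00293).

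In MyLa several mTOR complex genes changed. DEPTOR, an inhibitor of mTOR, had 973 ± 105 with cobomarsen and 330.0 ± 52.9 untreated at day 8 (adjusted p = 5.00e-05). PRR5L, which binds mTOR complex 2, had 1367 ± 160.1 with cobomarsen and 3375 ± 323 untreated (adjusted p = 7.53e-08). The list of mTOR complex genes had 7 rises and 2 falls among 11 tested in MyLa at day 8 (all genes, 23.0% and 17.8%), with a median log2 change of 0.31 beside 0.02 over all genes. The list thus had the highest share called, 81.8%, of any list in any comparison. That share was picked after the values were seen, and the lists were chosen with earlier results known, so it is a description. At day 4 in MyLa the list of mTOR complex genes had 3 rises and 4 falls among 11 (all genes, 12.9% and 12.3%), with a median of -0.11 beside 0.00.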
